A study of Mus musculus with 15 samples.

Results

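The kinases of the mitogen-activated protein (MAP) kinase cascade were followed through T cell receptor (TCR) engagement and its pharmacological block in A.E7, a CD4+ helper T cell clone of the mouse. Members were the genes named Mapk, Map2k, Map3k, Map4k or Mapkapk with a number, counted where the platform annotation gives a probe set a single symbol. There were 35 such genes, on 84 probe sets, among 15964 genes on the arrays. For each gene the probe set brightest on average across treatments was used, and 21 of the 35 (60%) reached 4 times the median of their chip type in at least 1 treatment, against 39.7% of all genes. These 21 genes are described below, by tier.

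Cells were mock treated or received anti-TCR alone, titled anergic on the arrays. The other 3 groups received the same anti-TCR stimulus with a drug: cyclosporin A (CSA), which blocks the phosphatase calcineurin; a protein kinase C inhibitor whose name the labels omit (PKCi); or rapamycin, PD98059 and SB203580 together (Combo), which block mTOR, the activation of the kinases MEK1 and MEK2, and the kinase p38. Each group is a pool of RNA from 2, 4 and 6 h, so a change at 1 time point cannot be told apart from a smaller change at all of them. Each pool was read once on each of 3 chip types (A, B and C), which gave 15 arrays of 1 clone. Because the chip types carry different probe sets, these are not replicates: every difference compares 1 array with 1 array, no p-value is given, and precision is limited by how few arrays there are. In bulk RNA, more responding cells and more RNA per cell cannot be told apart.

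In a MAP kinase cascade each tier phosphorylates the next. MAP4Ks and small GTPases activate MAP3Ks, which activate MAP2Ks, which activate the MAP kinases ERK, JNK and p38, and the MAPKAP kinases are substrates of p38 or of atypical ERKs. In T cells the receptor reaches the ERK branch through diacylglycerol, Ras and Raf, and the branches converge on AP-1 and other factors that drive cytokine genes. The arrays read RNA and not kinase activity, which is set by phosphorylation.

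The words rose and fell are kept for a difference of 2-fold or more in which the higher value reached a minimum of 4 times the chip's median (204.4 on chip A, 278 on B and 220 on C). The median itself (51.1, 69.5 and 55) was the floor to which lower values were raised, so a fold against a value under it is a lower bound, written "at least". On each array 17.4% to 23.0% of the probe sets reached the minimum. The error is technical only: where a gene had probe sets on more than 1 chip type, their log2 ratios varied with an SD of 0.75 when anti-TCR was set against mock. Set against anti-TCR alone, CSA gave 0.48, PKCi 0.71 and Combo 0.55. A 2-fold ratio (1 on the log2 scale) is therefore less than 2 technical SDs for anti-TCR (1.51), PKCi (1.43) and Combo (1.11), and just more for CSA (0.96). Of 10 T cell markers 9 were bright, among them Cd3e, Cd4 and Thy1, and Cd5 lay below the floor. Of 5 B cell, 3 CD8 T and NK cell and 4 erythroid and neutrophil markers 0 were, and of 6 macrophage and dendritic cell markers 1 was (Cd14, at most 293), with Csf1r, Adgre1, Itgam and Lyz2 below the floor throughout. The remaining one, Itgax, lay between 30.4 and 110.7, above the floor in every treatment except PKCi.

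**Figure D1:**
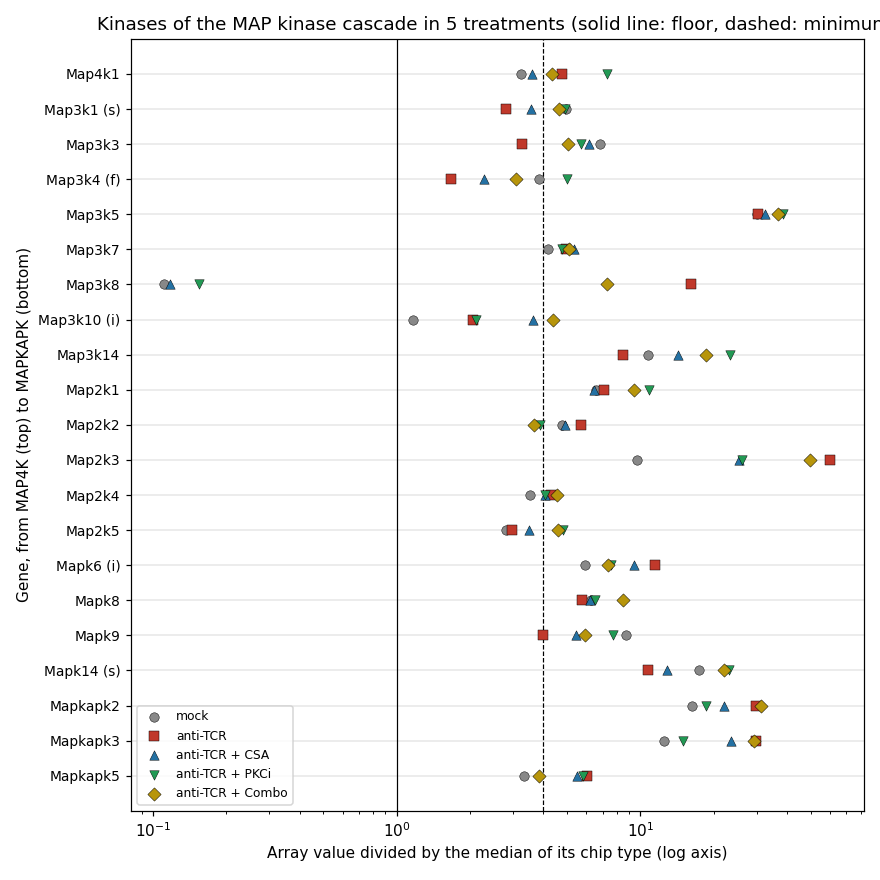
Array values of the 21 kinases that reached the minimum, each divided by the median of its chip type (log axis), with 1 point per treatment; the solid line is the floor and the dashed line is 4 times it. A letter in brackets marks a probe set whose name carries that suffix, a sign of shared sequence or a broken design rule. Map3k8 spans from 5.7 to 824 and Map2k3 from 494 to 3069, while Map2k4, Map3k5 and Map3k7 keep their 5 values within 1.29-fold on the probe sets used. Another bright Map3k7 probe set, not shown, spans from 119 to 379.

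Anti-TCR alone against mock asks which cascade genes respond to the receptor. Map3k8 and Map2k3, a MAP3K of the ERK branch and a MAP2K of the p38 branch, rose furthest, followed by Mapkapk3, a substrate kinase of p38. Map3k3 and Mapk9 fell. These were 3 rises and 2 falls among 18 members measured, that is 16.7% and 11.1%, against 11.4% and 13.9% of the 5803 genes measured. The shares are close to that background and say nothing particular about these kinases as a group. The median log2 ratio of the members was 0.25, against -0.08 over all genes measured. The rise of Map3k8 was at least 5.31 times the technical SD and that of Map2k3 3.49 times. The ratios of the other 3 genes (1.41 to 1.66 times) were within 2 technical SDs.

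Map4k1, the haematopoietic kinase HPK1 that restrains receptor signalling, was the only bright one of the 3 MAP4Ks among the members. It read 165 with mock, 244 with anti-TCR, 183 with CSA, 371 with PKCi and 223 with Combo. Its highest value, with PKCi, was 2.25-fold above mock, but no value lay 2-fold from anti-TCR alone.

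The MAP3K tier held the widest and some of the narrowest ranges. Map3k8 encodes TPL2 (COT), which activates MEK1 and MEK2 and is held by the NF-kB precursor p105. It read 5.7 with mock, 824 with anti-TCR, 6 with CSA, 7.9 with PKCi and 372 with Combo. It was thus below the floor in 3 of 5 treatments and bright in the others. It rose at least 16.1-fold with anti-TCR, was at least 16.1-fold lower with either CSA or PKCi, and fell 2.21-fold with Combo (log2 ratio -1.15), where it stayed at least 7.29-fold above mock. Its only other probe set, r-suffixed, lay below the floor in all 5 treatments (18.8 to 49.5), so this pattern rests on 1 probe set.

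Map3k14 encodes NIK, the kinase that starts the alternative NF-kB pathway. It read 589 with mock, 466 with anti-TCR, 788 with CSA, 1287 with PKCi and 1019.6 with Combo. The value with anti-TCR alone was the lowest of the 5. Against it Map3k14 rose 2.76-fold with PKCi and 2.19-fold with Combo, and read 0.76 on the log2 scale with CSA. With PKCi it was also 2.19-fold above mock. It has 1 probe set.

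Map3k3 encodes MEKK3, which feeds p38 and ERK5. It read 349.6 with mock, 167 with anti-TCR, 313 with CSA, 292 with PKCi and 258 with Combo, a fall of 2.09-fold with anti-TCR. Its 3 bright probe sets, all on chip A, gave log2 ratios of -1.07, -1.24 and -1.12 for anti-TCR against mock. Under each drug all 3 read above anti-TCR alone, between 0.73 and 0.94 with CSA, 0.81 and 1.25 with PKCi, and 0.63 and 1.01 with Combo. Anti-TCR alone was thus the lowest treatment on every one of them.

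Map3k4, a stress kinase (MEKK4) that binds Gadd45 proteins, has its brightest probe set with the suffix f. It read 211.5 with mock, 92.3 with anti-TCR, 125 with CSA, 275 with PKCi and 170.2 with Combo. Against anti-TCR alone it rose 2.98-fold with PKCi, 2.21 technical SDs, where it was 1.30-fold above mock. Its mock value lay just under the minimum of 220, so that its 2.29-fold lower value with anti-TCR is given without a call. A dimmer s-suffixed probe set on chip A read 140.4 with mock and 139.6 with PKCi, with anti-TCR (45.5) and CSA (50.4) both below the floor, while an r-suffixed one read 111.5 with anti-TCR and 117 with PKCi. Map3k1, which encodes MEKK1, an activator of the JNK branch, was s-suffixed and read 252 with mock, 144 with anti-TCR, 182 with CSA, 250.5 with PKCi and 237 with Combo. It passed no comparison (log2 ratio -0.81 with anti-TCR and 0.80 with PKCi).

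Map3k10, the mixed lineage kinase MLK2, was read on an i-suffixed probe set. It read 64.4 with mock, 113 with anti-TCR, 200.4 with CSA, 117 with PKCi and 242 with Combo. It reached the minimum with Combo only, where it rose 2.14-fold against anti-TCR alone. Its other probe set was dim throughout and read 84.2 with mock and 44.4 with Combo. Map3k5 and Map3k7 encode ASK1, a sensor of oxidative stress, and TAK1, which joins receptor signals to NF-kB and JNK. Map3k5 lay between 1657 and 2124 and Map3k7 between 230.4 and 293. For Map3k7 the probe sets did not move alike: another bright one, on chip B, read 379 with mock, 182 with anti-TCR, 273 with CSA, 304 with PKCi and 119 with Combo, a log2 ratio of -1.05 for anti-TCR against mock, against 0.24 on the probe set used. A further one, on chip A, read 94.2 with mock, 169.8 with anti-TCR and 209 with CSA, just reaching the minimum there.

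Among the MAP2Ks, Map2k3, which encodes MKK3, the activator of p38, read 494 with mock, 3069 with anti-TCR, 1294 with CSA, 1331 with PKCi and 2537 with Combo. All 4 stimulated values lay above mock. It rose 6.21-fold with anti-TCR and fell 2.37-fold with CSA and 2.31-fold with PKCi, which left 52.7% and 54.3% of its log2 induction; Combo left 89.6%. A second, g-suffixed probe set read 484 with mock, 1323 with anti-TCR, 1059 with CSA, 901 with PKCi and 1251 with Combo. Its log2 ratios were smaller, 1.45 for anti-TCR, -0.32 for CSA and -0.55 for PKCi, so the rise was seen on both probe sets and the 2-fold losses on 1 of them. With the mean of both probe sets neither loss passed (-0.78 and -0.88), and quantile normalization left the PKCi ratio at -0.97.

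The other MAP2Ks passed no comparison. Map2k1 and Map2k2 encode MEK1 and MEK2, whose activation PD98059 in the Combo treatment blocks. Map2k1 read 336 with mock, 363 with anti-TCR, 329 with CSA, 557 with PKCi and 479 with Combo. Map2k2 read 244 with mock, 290.5 with anti-TCR, 252 with CSA, 198 with PKCi and 187 with Combo. Against anti-TCR alone the 2 genes thus had ratios of opposite sign with Combo (0.40 and -0.64 on the log2 scale) and with PKCi (0.62 and -0.56). Map2k4, which encodes MKK4 of the JNK and p38 branches, lay between 246 and 317, and Map2k5, which encodes MEK5, the activator of ERK5, between 143 and 246, highest with PKCi.

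Among the MAP kinases, Mapk14 encodes p38 alpha, a target of SB203580 in the Combo treatment. It was read on an s-suffixed probe set at 887 with mock, 549 with anti-TCR, 659 with CSA, 1176.5 with PKCi and 1124 with Combo. Anti-TCR alone was the lowest treatment, and the 2 kinase inhibitor treatments were above mock. Against anti-TCR alone it rose 2.14-fold with PKCi and 2.05-fold with Combo (1.54 and 1.87 technical SDs). Against mock it was 1.33-fold and 1.27-fold higher, short of the size rule. A second probe set lay below the floor in all 5 treatments. The next protein-coding gene along the chromosome, Mapk13 (p38 delta), read at most 11.4, and Mapk11 and Mapk12, the neighbouring pair that encodes p38 beta and p38 gamma, did not reach the minimum either.

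Mapk8 and Mapk9 encode JNK1 and JNK2, which phosphorylate Jun. Mapk9 read 605.5 with mock, 278 with anti-TCR, 377 with CSA, 537 with PKCi and 410.0 with Combo. It fell 2.18-fold with anti-TCR and was above anti-TCR alone under each drug, by 0.95 on the log2 scale with PKCi. Mapk8 lay between 317 and 467.5, with mock at 344 and anti-TCR at 317, on the only bright one of its 6 probe sets. Its dim probe sets did not move alike. An i-suffixed one read 162.1 with mock and 13.8 with anti-TCR, and one on chip A read 76.6 and 131.8. The 2 other Mapk9 probe sets were dim with mock and anti-TCR, and 1 of them, on chip C, read 204.5 with PKCi.

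Mapk6 encodes the atypical kinase ERK3, a short-lived protein that binds the product of Mapkapk5. It was read on an i-suffixed probe set at 327 with mock, 630.3 with anti-TCR, 518 with CSA, 415.5 with PKCi and 405 with Combo, just under 2-fold above mock with anti-TCR (1.93-fold). A probe set without suffix, on chip A, was not used for the gene because its mean was lower. It read 119.5 with mock, 621 with anti-TCR, 202 with CSA, 112 with PKCi and 191 with Combo. On that probe set Mapk6 was 2.38 above mock on the log2 scale, and it was lower than anti-TCR alone by more than 2-fold in all 3 drug treatments (log2 ratios of -1.62, -2.47 and -1.70). The 2 probe sets thus gave the same signs and different sizes.

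The 3 MAPKAP kinases were all bright, and all read above mock with anti-TCR. Mapkapk3 encodes MK3, which with MK2 is activated by p38 and stabilises cytokine messages. It read 867 with mock, 2067 with anti-TCR, 1638 with CSA, 1038 with PKCi and 2029 with Combo. It rose 2.38-fold, and a second probe set read 174 with mock and 1139 with anti-TCR (log2 ratio 2.71). Combo left 97.8% of the log2 induction, CSA 73.2% and PKCi 20.7%. On the second probe set they left 91.9%, 80.0% and 65.9%, so the low share left with PKCi rests on 1 of 2 bright probe sets. The loss with PKCi, 1.99-fold, was just short of the size rule (log2 ratio -0.99), and it passed with median scaling (-1.04).

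Mapkapk2 encodes MK2 and read 832 with mock, 1522 with anti-TCR, 1130.5 with CSA, 952 with PKCi and 1590.2 with Combo. It did not reach 2-fold (log2 ratio 0.87), but an i-suffixed probe set read 46.2 with mock, 486 with anti-TCR, 315 with CSA, 139.7 with PKCi and 427 with Combo, a log2 ratio of at least 3.25. On both probe sets the order was the same for the 3 treatments with the lower values, mock below PKCi below CSA. Mapkapk5, which encodes PRAK (MK5), read 169.9 with mock, 308 with anti-TCR, 280.2 with CSA, 296 with PKCi and 195 with Combo. Its 2 bright probe sets were close, at 0.86 and 0.64 for anti-TCR against mock and at -0.65 and -0.62 for Combo against anti-TCR.

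**Figure D2:**
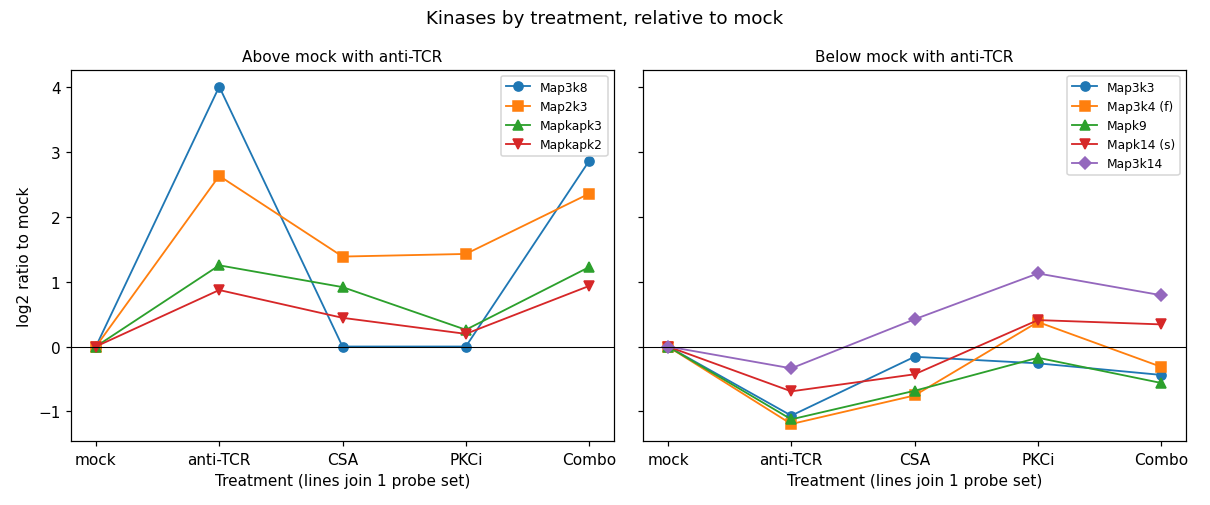
log2 ratio to mock of 9 kinases, chosen with their values known, in the 5 treatments, with values below the floor raised to it and lines that join the values of 1 probe set. On the left, Map2k3, Mapkapk3 and Mapkapk2 sit near their anti-TCR values with Combo. Map3k8 is at 0 with CSA and PKCi because its values lie below the floor. On the right, anti-TCR alone is the lowest treatment for all 5 genes, which were picked for reading below mock with it.

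The windows before the transcription start are shown for genes that passed the size rule with anti-TCR, since this is where receptor-induced factors could bind. For 4 of these 5 genes the 250 bases before the start are printed from RefSeq (GRCm38.p6), 5′ to 3′ on the gene's strand, with 1 of the 2 starts of Mapkapk3. The window of Map3k8 is not analysed here. Capitals mark CCAAT boxes (CCAAT on either strand) and GC boxes (GGGCGG on either strand). The first 2 genes rose, and the last 2 fell. Map2k3 lies at chr11:60931804-60932053 (plus strand), Mapkapk3 at chr9:107289878-107290127 (minus strand), Map3k3 at chr11:106084337-106084586 (plus strand) and Mapk9 at chr11:49846501-49846750 (plus strand).
Map2k3: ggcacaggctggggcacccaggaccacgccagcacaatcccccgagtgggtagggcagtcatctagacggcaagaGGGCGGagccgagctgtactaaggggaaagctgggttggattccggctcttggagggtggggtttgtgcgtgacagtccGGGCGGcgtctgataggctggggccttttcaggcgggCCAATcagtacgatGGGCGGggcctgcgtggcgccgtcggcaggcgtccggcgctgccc
Mapkapk3: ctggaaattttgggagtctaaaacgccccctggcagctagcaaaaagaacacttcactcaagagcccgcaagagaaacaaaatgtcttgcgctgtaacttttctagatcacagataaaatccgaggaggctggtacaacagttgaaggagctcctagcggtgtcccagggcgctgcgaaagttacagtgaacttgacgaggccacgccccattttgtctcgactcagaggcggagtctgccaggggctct
Map3k3: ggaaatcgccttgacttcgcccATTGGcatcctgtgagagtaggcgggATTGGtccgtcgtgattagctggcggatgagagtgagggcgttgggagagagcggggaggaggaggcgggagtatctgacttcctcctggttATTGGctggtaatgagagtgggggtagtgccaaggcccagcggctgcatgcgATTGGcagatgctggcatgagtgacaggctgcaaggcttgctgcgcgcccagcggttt
Mapk9: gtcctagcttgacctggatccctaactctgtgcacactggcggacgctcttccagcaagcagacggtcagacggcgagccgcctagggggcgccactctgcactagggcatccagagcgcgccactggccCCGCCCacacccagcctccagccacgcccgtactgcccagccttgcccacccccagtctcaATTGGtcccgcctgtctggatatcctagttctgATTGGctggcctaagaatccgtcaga

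None of these 4 windows, nor the other Mapkapk3 start, held AP-1 letters (TGANTCA), CRE letters (TGACGTCA), the NFAT core GGAAAA or the Egr letters GCGTGGGCG and GCGGGGGCG on either strand. Of 32851 promoter windows of the same length, 6.75%, 1.55%, 20.4% and 3.06% held them. CCAAT and GC boxes, searched after the first 4 motifs had given no match, occur in 33.8% and 32.7% of all windows. Map2k3 held 1 CCAAT and 3 GC boxes, Map3k3 4 CCAAT boxes and no GC box, and Mapk9 2 CCAAT boxes and 1 GC box, whereas neither Mapkapk3 window held any. A match is a run of letters and not a site, and no match says only that these letters are not in the window.

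The 3 drug comparisons ask which changes need calcineurin, protein kinase C, or mTOR, MEK and p38. They share the anti-TCR array of each chip type, so a value that is low or high on that array moves all 3 of them at once. For this reason the values with mock stand beside them above.

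With CSA, Map3k8 and Map2k3 fell and no member rose. These were 2 of 17 measured members (11.8%), against 5.34% of 5453 genes lower and 4.84% higher. The fall of Map3k8 was at least 8.35 times the technical SD and that of Map2k3 2.59 times. A second bright probe set of Map2k3 gave a log2 ratio of -0.32. The member with the highest ratio was Map3k3 at 0.91, and the median of the members was -0.13, against 0.03 over all genes.

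With PKCi, Map3k8 and Map2k3 fell, while Map3k4, Map3k14 and Mapk14 rose. Of 20 members measured, 3 (15%) were higher and 2 (10%) lower, close to the background of 14.3% and 9.75% of 5793 genes. Map3k8, Map3k4 and Map3k14 lay beyond 2 technical SDs. Map3k4 reached the minimum with PKCi only, so it entered the set through the value counted here as its rise. The members' median was 0.26 and that of all genes 0.03. Without suffixed probe sets Map3k14 was the only rise, since Map3k4 and Mapk14 have no bright probe set of the other kind.

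With Combo, Map3k8 fell, and Map3k10, Map3k14 and Mapk14 rose. Of 20 members measured, 3 (15%) were higher, against 7.95% of 5621 genes, and 1 (5%) was lower, against 5.46%. Map3k10 reached the minimum with Combo only, so it entered the set through the value counted here as its rise. Map3k8 and Map3k14 lay just beyond 2 technical SDs (2.07 and 2.04). Map2k3 and Mapkapk3, the 2 other genes that anti-TCR raised, kept log2 ratios of -0.27 and -0.03 to anti-TCR alone, and the members' median was 0.18, against 0.02 over all genes. Without suffixed probe sets Map3k14 was again the only rise. Over the 4 comparisons 9 of the 21 members (42.9%) passed at least once, against 36.3% of the 6337 genes that reached the minimum. Among the 9 are Map3k10 and Map3k4, which reached the minimum only in the treatment where they rose. Map3k8 reached it only with anti-TCR and Combo, so it too entered the set through values that its calls use. Map3k8 passed in all 4 and Map2k3 in 3, and 12 members passed in none.

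**Figure D3:**
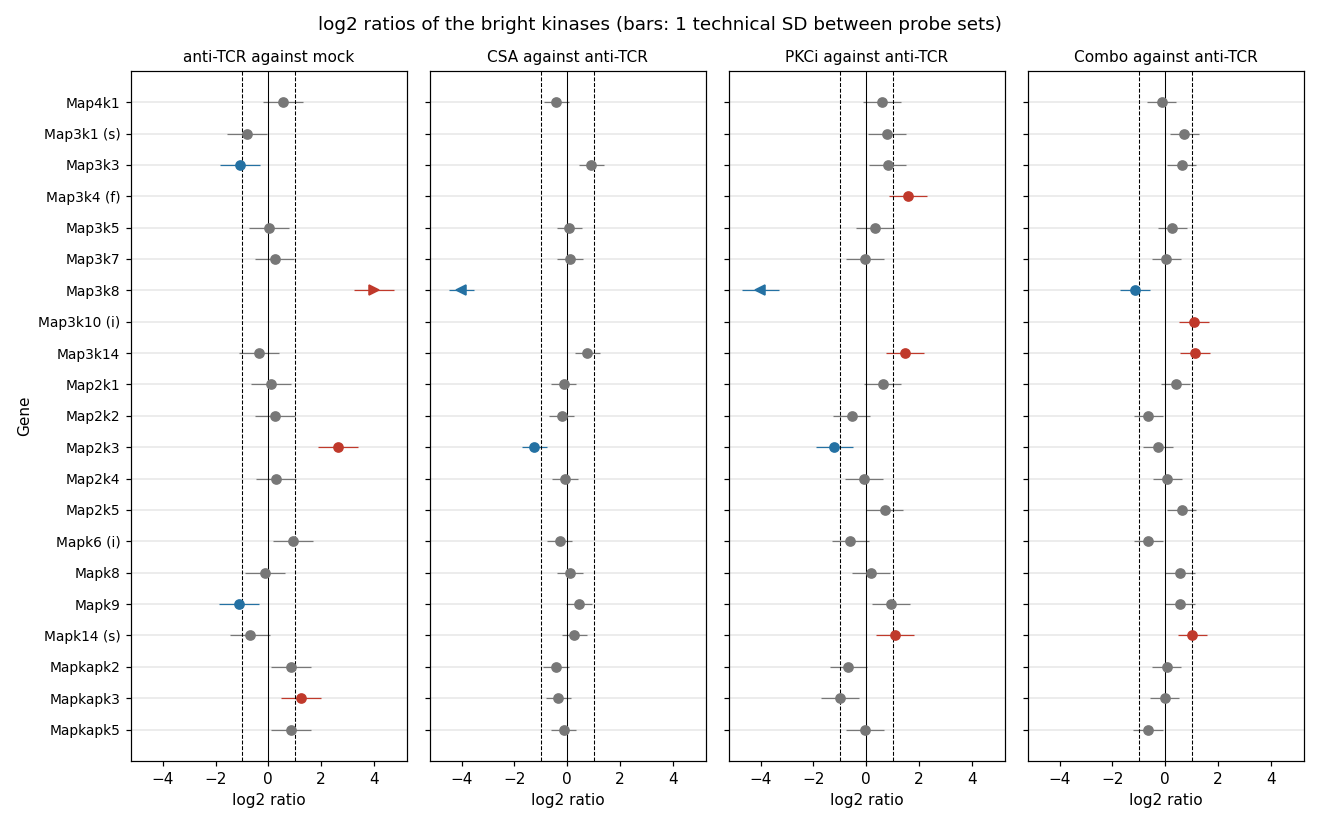
log2 ratios of the bright kinases in the 4 comparisons; bars are 1 technical SD of that comparison, triangles mark a ratio against a value below the floor, and dashed lines are 2-fold. Red points rose and blue points fell by the size rule, and a gene has no point where neither value reached the minimum. Map3k8 is the only gene past 2-fold in every panel, and the 12 genes with grey points throughout passed in none.

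Probe sets of the same kinase read the same RNA pools, so gaps between them show how far a ratio depends on the probe set. They do not measure variation between pools, and the cause of the gaps was not tested. Of the 21 members, 14 had 1 bright probe set, 5 had 2 and 2 had 3 (Map3k3 and Map3k7). For anti-TCR against mock 7 members had at least 2 measured probe sets, and these had the same sign in 6; the exception was Map3k7. The widest gap between probe sets of a gene was at least 2.38 on the log2 scale, for Mapkapk2, and the median gap 1.29. With CSA the signs were the same in 7 of 7 members, with a median gap of 0.20, with PKCi in 6 of 7 (0.65), and with Combo in 5 of 6 (0.22).

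**Figure D4:**
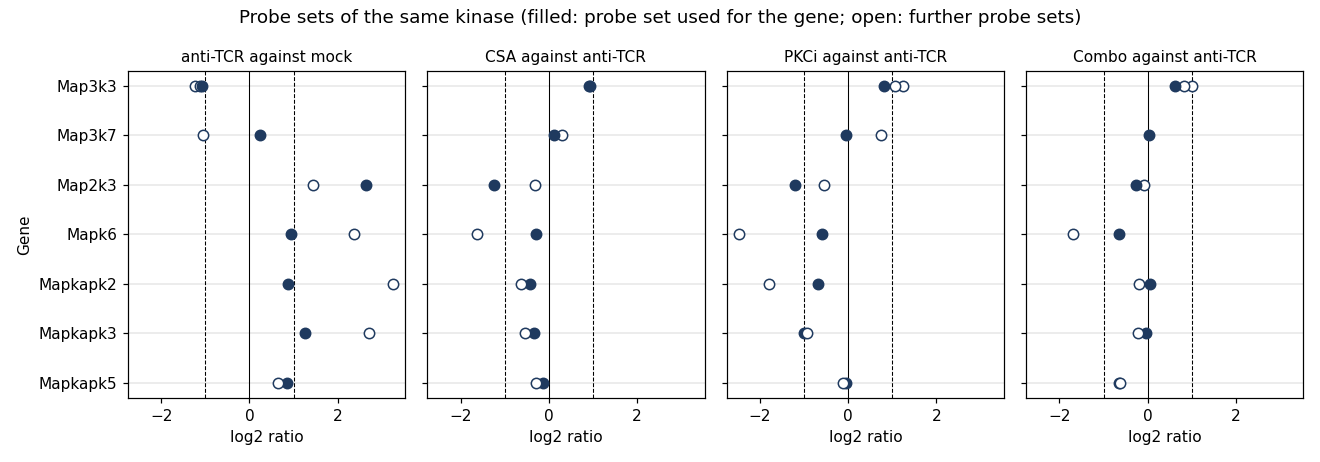
log2 ratios of each measured probe set of the 7 kinases that have more than 1 bright probe set; filled points are the probe sets used for the gene and open points the others, and dashed lines are 2-fold. For Mapk6, Mapkapk2 and Mapkapk3 the open point lies further from 0 than the filled one with anti-TCR, and for Map3k7 the 2 points lie on opposite sides of 0.

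The other 14 genes did not reach the minimum in any treatment. Just inside it were Map3k10 (4.39 times the chip's median) and Map2k4 (4.56 times), and just outside were Mapk4 (3.79 times), Map4k4 (3.67 times), Mapk7 (3.47 times) and Map3k11 (3.31 times). Mapk4, which encodes ERK4, read 81.7 with mock, 65.9 with anti-TCR, 77.4 with CSA, 209 with PKCi and 189.9 with Combo. Mapk7, which encodes ERK5, read 95.2 with mock, 23 with anti-TCR, 19.2 with CSA, 177 with PKCi and 126 with Combo. Map3k11, the mixed lineage kinase MLK3, read 169 with anti-TCR and 147 with CSA. No change is read from these dim values. The rest were Map4k5, Map3k2, Map3k6, Map3k12, Map3k20, Map2k6, Mapk10, Mapk11, Mapk12 and Mapk13. A dim probe set does not show that its gene is silent.

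Other genes of the pathway were taken from lists of upstream genes, further cascade kinases, scaffolds, downstream kinases, target transcription factors and phosphatases. The shares of all genes measured were, as above, 11.4% higher and 13.9% lower with anti-TCR. Of 16 measured upstream genes 2 rose and 4 fell with anti-TCR (median log2 ratio -0.31): the Ras GTPase activating genes Rasa2 (4.40-fold) and Rasal3 (3.44-fold) rose, and Rasa3 fell 4.15-fold and the Ras exchange factor Sos2 3.32-fold. Of 11 cascade kinases named outside the rule 0 rose and 2 fell, the Nemo-like kinase Nlk (4.53-fold) and Taok2 (2.42-fold). Of 14 scaffolds and partners 3 rose and 4 fell, the lowest being Lamtor2 (3.29-fold), a scaffold of the late endosome. Ksr1, the scaffold that brings Raf and MEK together, read 80.8 with mock, 441 with anti-TCR, 82.6 with CSA, 88.2 with PKCi and 193 with Combo. It thus had its highest values in the same 2 treatments as Map3k8. Tnip2, whose product binds TPL2 and p105, rose 4.00-fold with anti-TCR and fell 2.03-fold with Combo.

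Of 3 measured downstream kinases 1 rose and 1 fell with anti-TCR, against the same 11.4% and 13.9% of all genes. Rps6ka3, which encodes the ERK-activated kinase RSK2, read 239.6 with mock, 2684 with anti-TCR, 1649 with CSA, 374.5 with PKCi and 923 with Combo, and Mknk2, an ERK and p38 substrate that phosphorylates eIF4E, read 853, 375, 910.0, 1856 and 1337 in the same order. Mknk2 was thus lowest with anti-TCR alone, as Mapk14 was. Of 11 transcription factors that MAP kinases phosphorylate 4 rose and 2 fell, with Fosl2 18.6-fold and Junb (i-suffixed) 10.2-fold higher and Mef2d 3.06-fold and Creb1 2.36-fold lower. Of 7 phosphatases 3 rose, among them Dusp6 and Dusp5 (2.34-fold), and 1 fell, Dusp7 (4.42-fold). The ERK phosphatase Dusp6 read 13.1, 634, 218, 12.1 and 432 in that order, below the floor with mock and PKCi.

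Against anti-TCR alone the shares over all genes measured were 4.84% higher and 5.34% lower with CSA, 14.3% and 9.75% with PKCi, and 7.95% and 5.46% with Combo. Each list is small, so that 1 gene is a large share of it. Of 15 upstream genes 4 were higher with CSA, led by Rasa1 (4.42-fold) and Sos2 (3.83-fold), and 1 was lower, Rasgrp1 (2.66-fold), which couples diacylglycerol to Ras. With PKCi 4 of 16 were higher, led by Rasa3 (4.26-fold) and Sos2 (3.59-fold), and Rasa2 was lower (2.69-fold). With Combo Rasa3 was higher (2.15-fold) and Rasa2 lower (2.16-fold), of 15. Further cascade kinases gave 1 higher and 0 lower in each drug treatment, of 10, 11 and 10 measured: Tnik with CSA (2.13-fold), Nlk with PKCi (5.26-fold) and Taok2 with Combo (2.07-fold). Scaffolds gave 0 higher and 2 lower of 10 with CSA, 3 and 1 of 14 with PKCi, and 1 and 2 of 13 with Combo. Ksr1 was among the lower ones each time (log2 ratios of -2.42, -2.32 and -1.19), and Traf2 (i-suffixed), an adaptor of tumour necrosis factor receptors, was lower with CSA (2.34-fold). The beta-arrestin genes Arrb1 (f-suffixed) and Arrb2 were higher, Arrb1 with PKCi (3.40-fold) and Arrb2 with PKCi (2.32-fold) and Combo (2.03-fold).

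Downstream kinases gave 1 higher and 0 lower of 3 with CSA, 1 and 2 of 4 with PKCi, and 1 and 1 of 3 with Combo. Mknk2 was the higher one each time, while Rps6ka3 was lower with PKCi (7.17-fold) and Combo (2.91-fold), and Rps6ka6 (f-suffixed), which encodes RSK4, was lower with PKCi (2.22-fold). Transcription factors gave 1 higher and 2 lower of 10 with CSA, the same of 10 with PKCi, and 1 each of 11 with Combo. Fos, a subunit of AP-1, was lower in all 3 (2.94-fold with CSA, at least 7.23-fold with PKCi and 2.32-fold with Combo). Its partners Jund with CSA (4.25-fold) and Junb with PKCi (2.02-fold) were lower too, and the higher genes were Mef2d with CSA (2.13-fold) and PKCi (4.71-fold) and Creb1 with Combo (2.11-fold). Phosphatases gave 2 higher and 1 lower of 8 with CSA, 2 and 2 of 8 with PKCi, and 1 and 1 of 7 with Combo. Dusp7 was higher in all 3 (2.59-fold, 3.43-fold and 2.69-fold), and Dusp1 with CSA (2.67-fold) and PKCi (2.52-fold). Dusp6 was lower with CSA (2.91-fold) and PKCi (at least 12.4-fold), Dusp2 with PKCi (3.11-fold) and Ptpn7 with Combo (2.37-fold).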

How the data were processed

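Intensity values, deposited by the authors on a linear scale and never below 0, were taken without change. Trimmed means differ by at most 0.242% among arrays of 1 chip type, so the authors had scaled the arrays to a common level; the scaling software is not named in the labels. Groups were taken from the array titles. Gene symbols came from the platform annotation; 29131 of 36701 probe sets carry 1 symbol, and all 35 member gene identifiers matched the RefSeq gene table, with 0 symbols changed. For each gene the probe set with the top average was used, values below the chip's median were raised to it, and log2 ratios were taken within a chip type. Technical SDs are the SD of differences between probe sets of a gene on different chip types (848, 792, 867 and 839 pairs), divided by the square root of 2. The naming rule was every member that reached 4 times the median in any treatment, and the 2 highest and 2 lowest of the genes of a list that passed 2-fold in a comparison; Ksr1, Rps6ka3, Mknk2 and Dusp6 were picked for fuller description with their values known. A gene that this rule names in the scaffold list is not reported here. The members and lists were chosen with earlier results of these data known. The steps were tested on simulated data with changes larger than 2-fold planted in genes bright with mock, so calls near 2-fold were not tested. Alternatives were median scaling, quantile normalization, 0.5 and 2 times the floor, a minimum of 8 times the median, the mean of a gene's measured probe sets, and no suffixed probe sets. Python 3.11.15, pandas 2.3.3, numpy 2.4.6, scipy 1.17.1 and matplotlib 3.10.9 were used.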

Additional observations from a re-analysis of the deposited data

Results flagged for a closer look

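A pair of probe sets that the comparisons did not use read well above mock with anti-TCR while the probe set used for the same gene did not pass the size rule. For Mapk6 a chip A probe set without suffix gave a log2 ratio of 2.38, against 0.95 on the one used. For Mapkapk2 an i-suffixed chip A probe set gave at least 3.25, against 0.87. The cause of these differences was not tested. Both genes rose when the mean of their measured probe sets was taken (1.66 for Mapk6 and at least 2.06 for Mapkapk2).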

How the results depend on the processing

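No paired analysis was possible because each group has a single array on each chip, and for the same reason no replicate could be left out. Over 7 alternatives, Map3k8 rose with anti-TCR and fell with all 3 drugs in each, with a bound of 3.01 to 5.01 on the log2 scale against mock that follows the floor by construction. Median scaling added Mapk6 to the rises with anti-TCR (1.02) and left 1 fall (Mapk9), since Map3k3 read -0.99, and a minimum of 8 times the median also left 1; that minimum, which keeps fewer genes, moved the members' median with PKCi to -0.60. Quantile normalization left 1 fall with PKCi. The mean of measured probe sets gave 5 rises with anti-TCR, with Mapk6 and Mapkapk2 added, 1 fall with CSA and 2 falls with Combo; with PKCi Map3k3 was added to the rises (1.04), and Mapk6 (-1.54) and Mapkapk2 (-1.24) to the falls, which Map2k3 left (-0.88). Leaving out suffixed probe sets left 1 rise with PKCi and 1 with Combo and gave 2 falls with Combo, Map3k8 and Mapk6; Mapk6 also rose with anti-TCR (2.38) and fell with CSA (-1.62) and PKCi (-2.47), which made 3 falls in each. Of 477 single ratios recomputed, 454 stayed on their side of 2-fold and within 1 technical SD, 12 passed 2-fold, 4 no longer did, 7 moved further, and 0 ratios past 2-fold changed sign. Signal over background limits the 14 dim genes, for which no change can be read.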
